A study of Mus musculus with 12 samples.

Results

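The genes described here carry amino acids, or transmitters made from them, across membranes. They were taken as every symbol of the *Slc1*, *Slc3*, *Slc6*, *Slc7*, *Slc36*, *Slc38* and *Slc43* families in the expression tables except *Slc1a2* and *Slc1a3*, which serve as astrocyte markers below. This gave 58 of 45563 gene symbols. RNA had been sequenced from oligodendrocyte precursor cells (OPCs) of WT and germline TNFR2-/- pups, both labeled C57BL/6, as 12 libraries in 4 groups of 3. Cortical cells of pups aged 2 to 5 days by the labels were selected with anti-PDGFRα beads and kept for 3 days *in vitro* with growth factors. They were then left non-stimulated (NS, PBS vehicle) or stimulated (St) for 3 h with TNF, IFNγ and IL1β at 25 ng/mL each. The NS and St libraries of 1 culture carry the same replicate number (2, 3 and 4 in WT, and 2, 4 and 5 in TNFR2-/-), and the number of pups per culture is not given in the sources used here.

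Amino acid carriers set which building blocks, transmitters and antioxidant precursors a cell takes up or releases. The sodium-coupled *Slc1*, *Slc6* and *Slc38* carriers concentrate glutamate, GABA, glycine, taurine, creatine or glutamine. The *Slc7* light chains exchange amino acids across the membrane, many of them only when bound to a heavy chain of the *Slc3* family. In brain, uptake of GABA and glutamate by glia ends transmission, and uptake of cystine by the *Slc7a11* carrier feeds glutathione synthesis.

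Library totals ranged from 26886878 to 30335265 read pairs. The deposited values are FPKM, and the reads behind them could be recovered as whole numbers. FPKM are used here to compare libraries for 1 gene and for the level thresholds and the 0.5 added before logs, and not to rank genes. The lengths by which they were divided were unrelated to annotated exon length. Reads of the TNFR2 gene *Tnfrsf1b* numbered 12 to 24 (WT NS), 61 to 145 (WT St), 213 to 346 (labeled TNFR2-/- NS) and 282 to 356 (labeled TNFR2-/- St). This is higher under the TNFR2-/- label than under WT, and each direction between genotypes rests on these labels. The summed level of the 8 OPC markers examined was 7110 to 9950 RPM (reads scaled to a common library total) in the 12 libraries, with *Ptprz1* holding the most reads of the 8 in each. The 6 mature oligodendrocyte markers summed to 532 to 1300 RPM and the 8 neuronal markers to 720 to 1130 RPM. The summed level of 10 astrocyte markers was 1900 to 2320 RPM over the WT libraries, whereas TNFR2-/- libraries held 2900 to 4680. It was highest in TNFR2-/- culture 5, where *Gfap*, the astrocyte intermediate filament, was at 231 FPKM in NS and 233 in St, compared with 6.23 to 42.5 in the other 10 libraries. Of 10 microglia markers, 4 had 3 reads or fewer in every library, among them *Aif1* and *Cx3cr1*, and the summed level was 15.1 to 21.9 RPM.

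Of the 58 transporters, 42 reached a mean of 0.1 FPKM and were tested, and 35 reached 1 FPKM. The other 16 had 13 reads or fewer where reads could be recovered. *Slc6a7*, *Slc6a16* and *Slc7a15* were at 0 in every library, and *Slc6a18* and *Slc7a12* were above 0 in 1 library each. The carriers of noradrenaline (*Slc6a2*), serotonin (*Slc6a4*) and, at synapses, glycine (*Slc6a5*) were among those not tested, with at most 5, 4 and 2 reads. Both thresholds follow the deposited scale and not the reads, so which genes could be tested or called depends on its divisors. *Slc36a2* reached 1 FPKM with a mean of 5.67 reads per library, whereas *Slc7a14* did not with a mean of 112.

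To rank the transporters, recovered reads per library total (RPM, the scale of the marker sums above) were divided by the length of all annotated exons in kilobases. On this scale the highest level in WT NS OPCs was that of *Slc7a5*, the light chain that imports large neutral amino acids, at 120 ± 3.61 (SD, n = 3). Its heavy chain *Slc3a2* followed at 77.8 ± 2.21. Next came carriers whose means lay closer together than the SD of *Slc6a11*, namely *Slc6a11* (a GABA carrier, 65.8 ± 11.5) and *Slc38a2* (a neutral amino acid carrier, 65.0 ± 5.4). Lower levels were those of *Slc1a4* (alanine, serine and cysteine, 48.0 ± 0.0633), *Slc6a6* (taurine, 37.7 ± 2.95), *Slc7a1* (cationic amino acids, 32.2 ± 2.56), *Slc38a3* (glutamine, 29.2 ± 3.11) and *Slc6a8* (creatine, 28 ± 1.31), of which neighbors among the last 3 differed by less than the SD of *Slc38a3*.

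In TNFR2-/- NS OPCs the order differed. *Slc6a11* stood second at 107 ± 13.9, above *Slc3a2* at 86.7 ± 7.86. *Slc38a3* (48.1 ± 10.9) was then above *Slc38a2* (33.1 ± 8.16), which it was below in WT NS. *Slc7a11*, the cystine and glutamate exchanger, was at 3.42 ± 0.481 in WT NS and at 9.81 ± 3.01 in TNFR2-/- St OPCs.

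**Figure D1:**
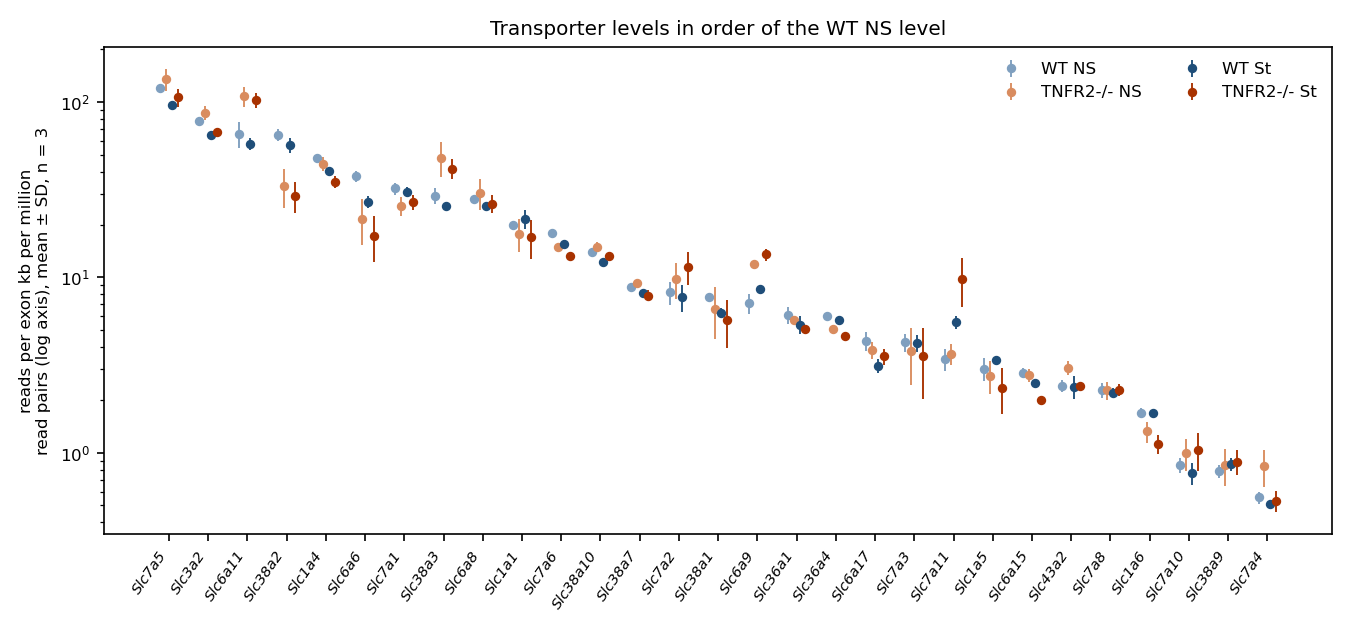
Mean levels of 29 of the highest transporters in RPM divided by annotated exon length in kilobases (log axis), in the order of WT NS, with SD over 3 libraries as bars. *Slc7a5* has the highest mean in each of the 4 groups (in TNFR2-/- St within its SD of *Slc6a11*), *Slc38a2* and *Slc6a6* are lower and *Slc6a11*, *Slc38a3* and *Slc6a9* higher in both TNFR2-/- groups.

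The comparisons used limma on log2(FPKM + 0.5), with p adjusted over the 18081 genes tested. To be called, a gene needed an adjusted p no higher than 0.05, a change of 1.5-fold or more and an average of 1 FPKM or more. Differences below are on this log2 scale with their standard error (SE). The 12 libraries gave 1 common estimate of the spread, and comparisons that name the same group share its libraries. For 1 gene, an exact permutation test of 3 against 3 libraries cannot give a p below 0.1.

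The cytokines raised *Slc7a11* in OPCs of both genotypes. The gene (ENSMUSG00000027737; GRCm38, chromosome 3, 49892526 to 50443614, minus strand) encodes the light chain that takes up cystine in exchange for glutamate. In cultures 2, 3 and 4 it was at 43, 32.7 and 41.1 FPKM in WT NS and at 66.6, 56.9 and 65.3 FPKM in WT St. In cultures 2, 4 and 5 it was at 43.5, 35.4 and 46.6 FPKM in TNFR2-/- NS and at 89.9, 94.0 and 151 FPKM in TNFR2-/- St. The NS groups of the genotypes overlapped, the St libraries lay above the NS libraries in both, and TNFR2-/- St lay above WT St. The 1075 to 5308 reads per library behind these values leave little counting error.

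The increase was 0.69 ± 0.19 SE in WT OPCs (1.62-fold, adjusted p = 0.0318) and 1.38 ± 0.19 SE in TNFR2-/- OPCs (2.59-fold, adjusted p = 0.000443). Within cultures the St library exceeded the NS library 1.55-, 1.74- and 1.59-fold in WT, and 2.07-, 2.66- and 3.24-fold in TNFR2-/-, so each TNFR2-/- culture moved further than each WT culture. The test of that difference, the interaction of genotype and stimulation, gave 0.68 ± 0.27 SE with an adjusted p of 0.583. With the culture as a block it gave an adjusted p of 0.107, so a difference in response was not established for *Slc7a11*. The increase in TNFR2-/- OPCs was called under each of the 25 alternatives, with 1.14 to 1.51. The increase in WT OPCs lost its call without any 1 of the 6 WT libraries (adjusted p = 0.0503 to 0.118, within 0.00398 to 0.118 over its alternatives), and was 0.69 with an adjusted p of 0.00416 with the culture as a block.

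*Slc7a11* was also higher in TNFR2-/- St than in WT St OPCs, by 0.78 ± 0.19 SE (adjusted p = 0.0444), while the NS groups differed by 0.10 ± 0.19 SE (adjusted p = 0.765). Without both libraries of TNFR2-/- culture 5, which held the highest *Slc7a11* and astrocyte marker levels, the St difference was 0.55 with an adjusted p of 0.0699, and the increase with stimulation in TNFR2-/- OPCs was 1.22 with an adjusted p of 0.000631. The St difference also lost its call when any 1 library other than TNFR2-/- NS replicates 4 and 5 and TNFR2-/- St replicate 4 was left out (adjusted p = 0.0518 to 0.155, within 0.0272 to 0.155 over its alternatives). Leaving out an NS library did not change the difference itself, only the common spread estimate and the adjustment. The part of astrocytes in this difference was not tested, and a higher share of cells that express the gene and more RNA per cell cannot be told apart in bulk libraries.

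The 250 bases upstream of the *Slc7a11* start are shown because this was the transporter that rose in both genotypes (RefSeq, GRCm38.p6, chr3:50443614-50443863, minus strand, 5′ to 3′). Capitals mark 3 matches to searched motifs.
Slc7a11: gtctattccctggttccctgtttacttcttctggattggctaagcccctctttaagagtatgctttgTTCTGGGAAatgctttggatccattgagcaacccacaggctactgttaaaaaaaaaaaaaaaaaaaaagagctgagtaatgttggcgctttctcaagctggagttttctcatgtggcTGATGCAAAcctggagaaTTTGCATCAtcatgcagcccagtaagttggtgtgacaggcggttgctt
The first is a gamma-activated site (TTCNNNGAA), 183 to 175 bases before the start. The other 2 are amino acid response cores (TGATGNAAN), on opposite strands, 66 to 58 and 48 to 40 bases before the start. Both strands of 32851 RefSeq windows of 250 bases were searched, of which 3.44% held the amino acid response core and 7.02% the gamma-activated site. Windows were present for 40 of the 58 transporters, and 3 of their 61 windows held each of these 2 motifs. Of the other motifs searched, the kappaB core (GGANTTTCC), the interferon response core (GAAANNGAA), the antioxidant response core (TGACNNNGC) and AP-1 (TGANTCA), these letters were not in the *Slc7a11* window. They were found in 2, 4, 9 and 9 of the 61 windows, compared with 1.07%, 7.13%, 10.16% and 6.75% of all windows. The last 2 share letters and can overlap. A match is a description of the letters and not evidence that a factor bound there.

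**Figure D2:**
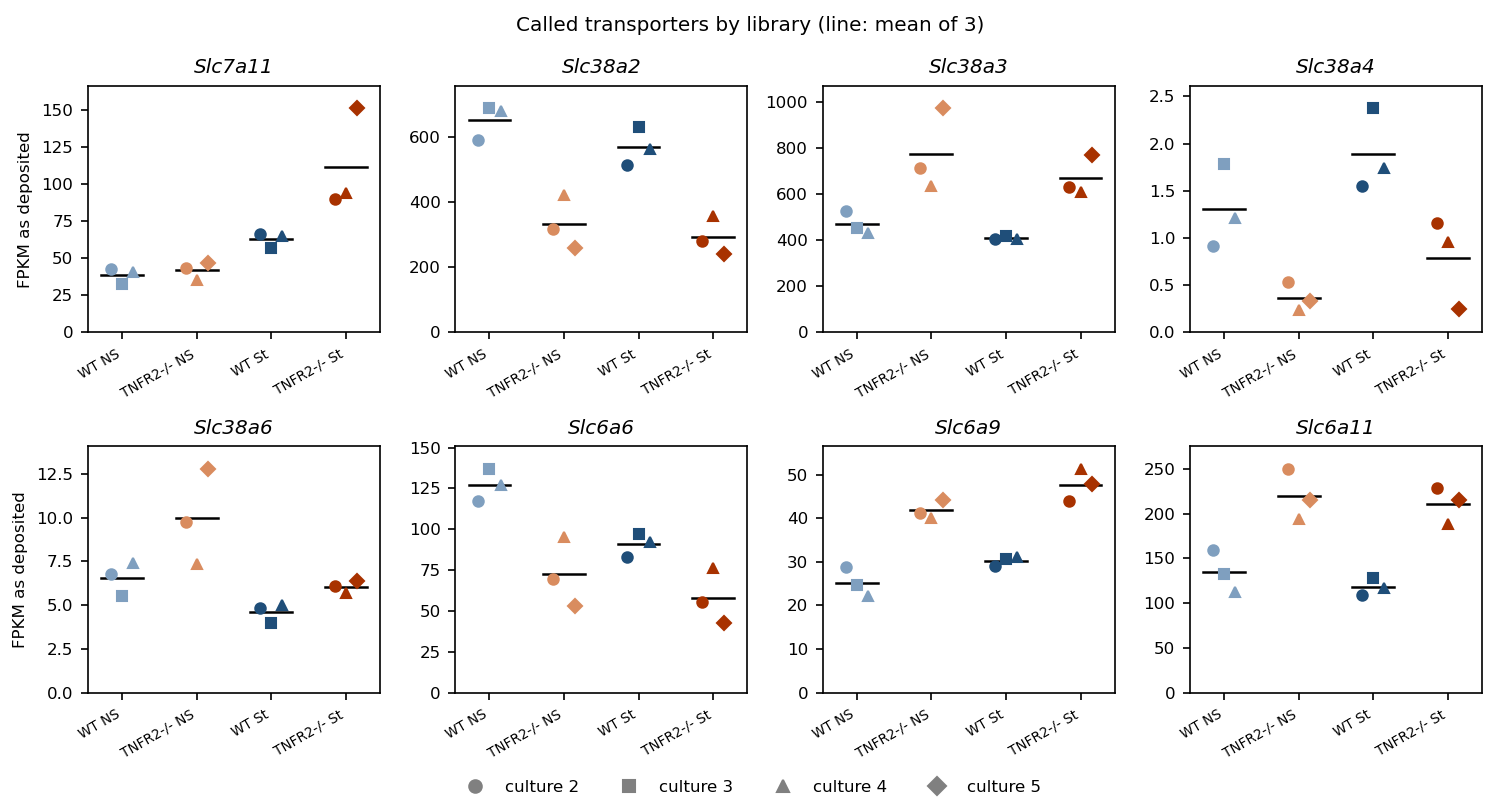
FPKM as deposited of the 8 transporters called in at least 1 comparison, 1 point per library with the culture number as its shape and a line at the mean of 3. Each vertical axis starts at 0 and has its own scale. *Slc7a11* is highest in the 3 TNFR2-/- St libraries (89.9 to 151), and *Slc38a2* is lower in all 6 TNFR2-/- than in all 6 WT libraries.

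In WT OPCs, *Slc7a11* was the 1 transporter called with stimulation (1 of 42 tested, 2.38%, compared with 7.53% of all genes tested). In TNFR2-/- OPCs *Slc7a11* rose and *Slc38a6* fell (2 of 42, 4.76%, compared with 10.1% of all genes). *Slc38a6*, a less characterized member of the neutral carrier family, was at 9.73, 7.33 and 12.8 FPKM in TNFR2-/- NS cultures 2, 4 and 5 and at 6.09, 5.67 and 6.37 in TNFR2-/- St, with no overlap. It fell by 0.64 ± 0.18 SE (adjusted p = 0.023). In WT OPCs it went from 6.77, 5.55 and 7.41 FPKM to 4.84, 3.98 and 5.02, also without overlap, with a difference of −0.47 ± 0.18 SE (adjusted p = 0.113) that was not called. The decrease in TNFR2-/- OPCs lost its call without TNFR2-/- NS replicate 2 or 5 or TNFR2-/- St replicate 2 or 4 (adjusted p = 0.058, 0.0649, 0.0541 and 0.0714, within 0.00397 to 0.0829 over its alternatives), and without culture 5 it was −0.49 (adjusted p = 0.0829). With median-of-ratios scaling it was −0.53 (adjusted p = 0.0524).

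*Slc43a3*, which belongs to a family of facilitative carriers and is known to carry purine bases, rose in both genotypes when the culture was a block. It had 76, 27 and 62 reads in WT NS and 196, 75 and 153 in WT St cultures 2, 3 and 4, and 85, 61 and 46 reads in TNFR2-/- NS and 131, 96 and 135 in TNFR2-/- St cultures 2, 4 and 5. The WT groups overlapped, but the St library exceeded the NS library of each of the 6 cultures, 1.55- to 3.10-fold. Blocked fold changes were 0.87 ± 0.15 SE in WT (adjusted p = 0.00516) and 0.65 ± 0.15 SE in TNFR2-/- OPCs (adjusted p = 0.0123), against unblocked adjusted p of 0.0545 and 0.11 (over its alternatives 0.00516 to 0.187 and 0.0123 to 0.426). The WT increase was also called with voom and with median-of-ratios scaling, and without culture 5 the TNFR2-/- increase was 0.44 (adjusted p = 0.426). With *Slc43a3* the number of called transporters with the culture as a block was 2 in WT and 3 in TNFR2-/- OPCs.

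Smaller decreases with stimulation passed the adjusted p but not the fold change. By adjusted p alone, 6 transporters passed in WT (1 up and 5 down, compared with 16.1% of all genes tested) and 11 in TNFR2-/- OPCs (1 up and 10 down, compared with 26% of all genes). With median-of-ratios scaling these splits were 3 up and 0 down in WT (14.3% of all genes passed) and 2 up and 2 down in TNFR2-/- OPCs (19.5%), so most of the decreases did not pass on that scale. The 2 that still passed downward were *Slc6a15* (−0.34) and *Slc7a4* (−0.44) in TNFR2-/- OPCs. *Slc3a2*, *Slc1a4* and *Slc7a6* were among those that fell in both genotypes on the deposited scale. *Slc3a2*, the heavy chain shared by *Slc7a5*, *Slc7a6*, *Slc7a8*, *Slc7a10* and *Slc7a11*, was at 82.8 to 87.6 FPKM (WT NS), 68.9 to 75.0 (WT St), 87.9 to 105 (TNFR2-/- NS) and 70.4 to 77.7 FPKM (TNFR2-/- St). It fell by 0.26 ± 0.07 SE in WT (adjusted p = 0.0306) and by 0.36 ± 0.07 SE in TNFR2-/- OPCs (adjusted p = 0.00399). With median-of-ratios scaling these differences were −0.20 (adjusted p = 0.132) and −0.24 (adjusted p = 0.055).

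*Slc1a4* fell by 0.25 and 0.33 (adjusted p = 0.0326 and 0.00581) and *Slc7a6*, a carrier of cationic and neutral amino acids, by 0.22 and 0.17 (adjusted p = 0.021 and 0.0419), in WT and TNFR2-/- OPCs. Neither passed with median-of-ratios scaling, with −0.20 and −0.22 for *Slc1a4* (adjusted p = 0.135 and 0.0784) and −0.16 and −0.06 for *Slc7a6* (adjusted p = 0.127 and 0.618). *Slc7a5* fell by 0.34 in TNFR2-/- OPCs (adjusted p = 0.0431) with overlap between NS and St. Its WT libraries had 423 to 449 FPKM (NS) and 338 to 356 FPKM (St), a difference of −0.33 (adjusted p = 0.0644). *Slc6a15* (−0.46), *Slc7a4* (−0.54), *Slc38a7* (−0.24) and *Slc43a2* (−0.34) passed in TNFR2-/- OPCs and *Slc6a17* (−0.43) in WT OPCs. The interactions of these genes had an adjusted p above 0.05. The median fold change of the 42 transporters was −0.10 in WT and −0.15 in TNFR2-/- OPCs, beside −0.06 and −0.11 over all genes tested, and median-of-ratios scaling moved the latter to −0.01 and −0.02. In 15 transporters all WT St libraries lay below all WT NS libraries (24.0% of all genes did so) and in 2 above (13.7%), 17 together (37.7%). In TNFR2-/- OPCs these numbers were 12 (24.7%), 3 (12.7%) and 15 (37.3%). The summed OPC markers were 8580 to 9950 RPM in NS and 7110 to 8190 in St libraries, but single markers did not all move 1 way. In WT OPCs *Olig2* (−1.23) and *Cspg4* (−0.66) were called down and *Sox10* (0.61) up, and in TNFR2-/- OPCs *Olig2* (−1.17) was called down. Of 7 tested neuronal markers, *Tubb3* (3.06 and 3.19 in WT and TNFR2-/- OPCs) was called up and *Snap25* (−0.97 and −0.94) down. The part of these shifts in the transporter changes was not tested.

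With the culture as a block, more of the small decreases passed the adjusted p alone, with 2 up and 13 down in WT (31.6% of all genes passed in either direction) and 2 up and 18 down in TNFR2-/- OPCs (45.1%). The taurine carrier *Slc6a6* differed by −0.48 ± 0.03 SE in WT and −0.32 ± 0.03 SE in TNFR2-/- OPCs (blocked adjusted p = 5.5e-05 and 0.000217, unblocked 0.196 and 0.332). Its St library was lower than the NS library of each of the 6 cultures, by amounts below 1.5-fold. The WT difference of *Slc7a5* also passed (blocked adjusted p = 0.000415), as did those of *Slc38a1* (−0.30 in WT and −0.20 in TNFR2-/-) and *Slc38a2* (−0.20 and −0.17).

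**Figure D3:**
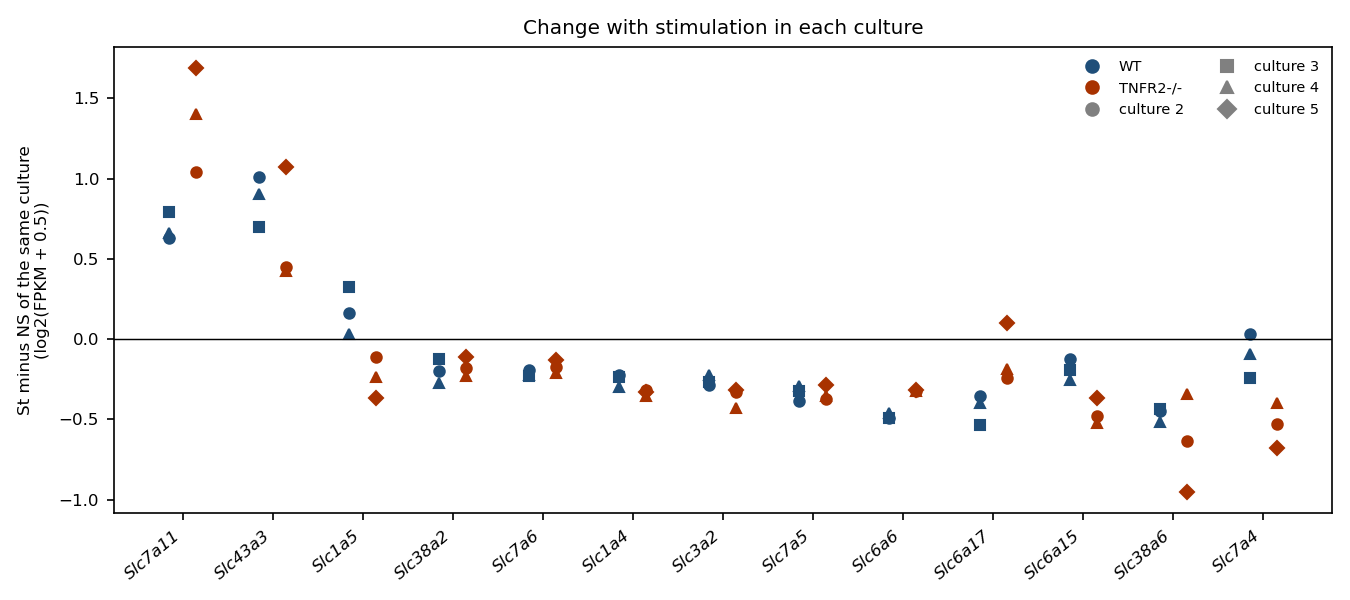
Difference between the St and the NS library of the same culture on the log2(FPKM + 0.5) scale for selected transporters, with WT cultures in blue, TNFR2-/- cultures in red and the culture number as the shape. *Slc7a11* and *Slc43a3* lie above 0 in all 6 cultures, *Slc3a2*, *Slc1a4* and *Slc7a6* below 0 in all 6, and *Slc1a5* above 0 in WT and below 0 in TNFR2-/- cultures.

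No transporter was called in the interaction (0 of 42 with limma, compared with 0.00553% of all genes tested, and 0 with voom on the recovered reads). At an unadjusted p under 0.05 there were 2, *Slc7a11* and *Slc6a15*. The share of all genes at this threshold was not computed, so the count is not read as a result. *Slc1a5*, a glutamine and neutral amino acid exchanger, was higher in St than in NS in the 3 WT cultures (by 0.17, 0.33 and 0.03) and lower in the 3 TNFR2-/- cultures (by −0.11, −0.24 and −0.37). Its interaction was −0.41 ± 0.31 SE (adjusted p = 0.8, and 0.115 with the culture as a block).

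Between genotypes, 6 transporters were called in NS OPCs (14.3% of 42, compared with 2.90% of all genes tested) and 5 in St OPCs (11.9%, compared with 1.80%). *Slc38a2*, *Slc38a3*, *Slc6a9* and *Slc6a11* were called in both, in the same direction. The NS and St libraries of a genotype come from the same 3 cultures, so agreement between the conditions is not an independent replication. *Slc38a4* and *Slc6a6* were called in NS and *Slc7a11* in St OPCs. With the replicate number as a block across genotypes, which does not pair these cultures, 3 and 4 were called. Genotypes were free of overlap for 17 transporters in NS (40.5%, compared with 34.2% of all genes tested), of which 7 were higher (19.9% of all genes) and 10 lower (14.3%) in TNFR2-/-. In St OPCs there were 20 (47.6%, compared with 32.7%), 9 higher (15.4%) and 11 lower (17.3%). The median fold change of the 42 transporters was 0.06 in NS and 0.01 in St, beside 0.04 and 0.00 over all genes.

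**Figure D4:**
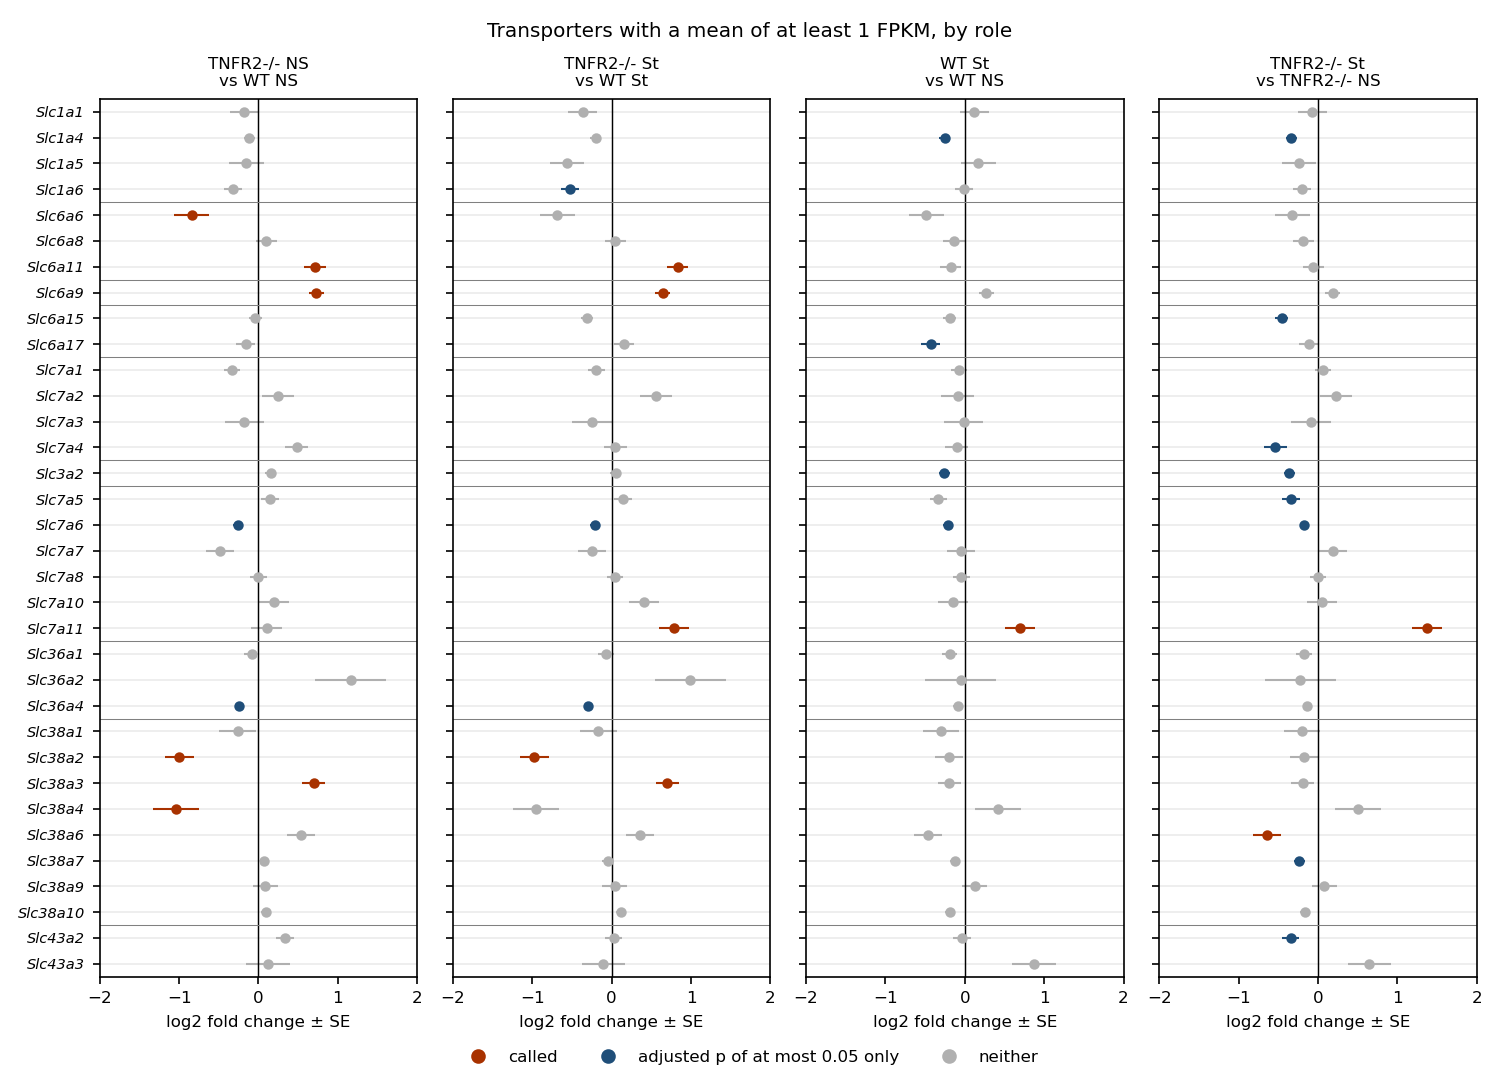
Log2 fold changes ± SE of transporters with a mean of at least 1 FPKM, grouped by role with lines between the groups, in the 4 comparisons. Red points were called, blue points passed the adjusted p alone and gray points neither. *Slc38a2* is lower and *Slc38a3*, *Slc6a9* and *Slc6a11* are higher in TNFR2-/- OPCs in both conditions, while *Slc7a11* stands out among the changes with stimulation.

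The sodium-coupled neutral carriers moved in both directions. *Slc38a2* (ENSMUSG00000022462; chromosome 15, 96687392 to 96699730, minus strand), which takes up glutamine, alanine and other small neutral amino acids, was at 590, 687 and 681 FPKM in WT NS cultures 2, 3 and 4 and at 316, 421 and 260 in TNFR2-/- NS cultures 2, 4 and 5. In St OPCs it was at 514, 630 and 564 FPKM in WT and at 280, 359 and 240 in TNFR2-/-. Every TNFR2-/- library lay below every WT library, whichever the treatment. TNFR2-/- and WT OPCs differed by −0.997 ± 0.18 SE (NS, adjusted p = 0.0161) and −0.97 ± 0.18 SE (St, adjusted p = 0.0217). It was −0.83 (adjusted p = 0.0345) and −0.84 (adjusted p = 0.0433) without culture 5. The NS call was lost without WT NS replicate 3 or 4 or TNFR2-/- NS replicate 5 (adjusted p = 0.0735, 0.0634 and 0.0521, within 0.0022 to 0.0847 over its alternatives), and the St call without WT St replicate 3 or 4 or TNFR2-/- St replicate 2 or 5 (adjusted p = 0.0943, 0.0789, 0.0594 and 0.0792, within 0.00343 to 0.0943).

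The 250 bases upstream of *Slc38a2* are shown as those of the transporter with the lowest TNFR2-/- to WT ratio among the called genes of over 1000 reads (RefSeq, GRCm38.p6, chr15:96699729-96699978, minus strand, 5′ to 3′), with the 1 match, to the antioxidant response core 27 to 19 bases before the start, in capitals.
Slc38a2: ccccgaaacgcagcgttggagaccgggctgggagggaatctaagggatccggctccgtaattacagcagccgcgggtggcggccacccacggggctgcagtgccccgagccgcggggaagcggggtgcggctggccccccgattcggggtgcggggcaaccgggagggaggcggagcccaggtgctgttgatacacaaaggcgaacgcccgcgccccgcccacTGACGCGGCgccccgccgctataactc
The letters of the other 5 motifs were not in this window.

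*Slc38a3* (ENSMUSG00000010064; chromosome 9, 107650634 to 107669530, minus strand) carries glutamine and histidine and is abundant in astrocytes of the brain. It was at 528, 456 and 432 FPKM in WT NS and 716, 637 and 974 in TNFR2-/- NS, and at 404, 421 and 405 in WT St and 633, 609 and 773 in TNFR2-/- St. All TNFR2-/- libraries lay above all WT libraries, with culture 5 the highest in both conditions. It was higher in TNFR2-/- OPCs by 0.70 ± 0.15 SE (NS, adjusted p = 0.0216) and by 0.70 ± 0.15 SE (St, adjusted p = 0.0298). Without culture 5 it was 0.52 (adjusted p = 0.0309), below the fold change required, and 0.60 (adjusted p = 0.0282). The NS call was lost without WT NS replicate 3 or 4 or TNFR2-/- NS replicate 5 (adjusted p = 0.0895, 0.0817 and 0.0561, within 0.00636 to 0.094 over its alternatives), and the St call without any 1 WT St library or TNFR2-/- St replicate 2 or 5 (adjusted p = 0.0644 to 0.105, within 0.00821 to 0.105).

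*Slc38a4*, a carrier of neutral and cationic amino acids, had only 5 to 49 reads per library. It was at 0.920, 1.78 and 1.21 FPKM in WT NS and at 0.531, 0.240 and 0.335 in TNFR2-/- NS, without overlap. The difference was −1.04 ± 0.29 SE (adjusted p = 0.0472) and was called in 6 of 25 alternatives. The call was lost without any 1 library other than TNFR2-/- St replicates 2 and 5 (adjusted p = 0.0501 to 0.167, within 0.0203 to 0.167 over its alternatives). Leaving out an St library did not change the difference itself, only the common spread estimate and the adjustment. In St OPCs *Slc38a4* was at 1.55, 2.37 and 1.74 FPKM in WT and at 1.16, 0.961 and 0.253 in TNFR2-/-, again without overlap and not called (adjusted p = 0.0761).

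*Slc38a1*, *Slc38a2* and *Slc38a4* are neighbors on chromosome 15, with 44.5 kb between the first 2 and 295.1 kb between the others. *Slc38a1*, a glutamine carrier, did not pass the unblocked test in any comparison, with genotype differences of −0.26 ± 0.23 SE (NS, adjusted p = 0.483) and −0.17 ± 0.23 SE (St, adjusted p = 0.68). Its TNFR2-/- NS cultures spread from 60.5 to 114 FPKM, on both sides of the WT NS range of 95 to 104. Of the 11 listed members of this family, 8 were tested, and *Slc38a7*, *Slc38a9* and *Slc38a10*, carriers of lysosomes or of less known substrates, were not called in any comparison.

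Among the carriers of GABA, taurine, betaine and creatine, 5 of 6 were tested. *Slc6a11* (ENSMUSG00000030307; chromosome 6, 114131241 to 114249952, plus strand), a GABA carrier known for its expression in astrocytes, was at 159, 132 and 113 FPKM in WT NS and 250, 194 and 216 in TNFR2-/- NS, and at 109, 128 and 117 in WT St and 229, 188 and 215 in TNFR2-/- St. Again no TNFR2-/- library overlapped the WT libraries, but here culture 5 was not the highest, and culture 2 was. TNFR2-/- exceeded WT OPCs by 0.71 ± 0.13 SE (NS, adjusted p = 0.0179) and 0.83 ± 0.13 SE (St, adjusted p = 0.0158). Without culture 5 these were 0.72 (adjusted p = 0.0485) and 0.815 (adjusted p = 0.0531). The NS call was lost without WT NS replicate 3 or 4 or TNFR2-/- NS replicate 2 or 5 (adjusted p = 0.0765, 0.0641, 0.0504 and 0.056, within 0.00948 to 0.0882 over its alternatives), and the St call without WT St replicate 4 or TNFR2-/- St replicate 5 (adjusted p = 0.0657 and 0.0543, within 0.00753 to 0.0657). The betaine and GABA carriers *Slc6a12* and *Slc6a13* had at most 6 and 2 reads.

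*Slc6a6*, the taurine carrier (ENSMUSG00000030096; chromosome 6, 91684053 to 91759066, plus strand), was at 117, 137 and 127 FPKM in WT NS and at 69.6, 95.4 and 52.9 in TNFR2-/- NS, without overlap. It was lower by −0.84 ± 0.22 SE (adjusted p = 0.0408). In St OPCs it was at 83.2, 97.4 and 92.1 FPKM in WT and 55.5, 76.1 and 42.4 in TNFR2-/-, also without overlap and not called. Culture 5 was the lowest in both conditions, and without it the NS difference was −0.64 (adjusted p = 0.0621). The NS call was lost without any 1 library other than TNFR2-/- NS replicate 4 and TNFR2-/- St replicates 4 and 5 (adjusted p = 0.0537 to 0.138, within 0.00682 to 0.138 over its alternatives). Leaving out an St library did not change the NS difference itself, only the common spread estimate and the adjustment. *Slc6a8*, the creatine carrier, was at 12.7 to 20.3 FPKM in the 12 libraries and its genotypes overlapped, with differences of 0.10 ± 0.13 SE and 0.05 ± 0.13 SE. An exon of an opposite-strand gene, *Gm44981*, overlaps *Slc6a6*.

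*Slc6a9* (ENSMUSG00000028542; chromosome 4, 117834506 to 117875198, plus strand), the glial glycine carrier, was at 28.8, 24.7 and 22.1 FPKM in WT NS and 41.3, 40 and 44.2 in TNFR2-/- NS. In St OPCs it was at 29.1, 30.7 and 31.0 FPKM in WT and 43.9, 51.3 and 47.8 in TNFR2-/-. The TNFR2-/- libraries lay above all WT libraries and close to each other. The increase over WT was 0.73 ± 0.10 SE (NS, adjusted p = 0.00727) and 0.65 ± 0.10 SE (St, adjusted p = 0.011), and 0.69 (adjusted p = 0.0296) and 0.64 (adjusted p = 0.0367) without culture 5. Each was called under 24 of 25 alternatives, and the St call was lost without WT St replicate 4 (adjusted p = 0.0507, within 0.00516 to 0.0507). Exons of *B4galt2*, *Ccdc24* and *Gm17114* on the opposite strand overlap those of *Slc6a9*, and whether reads were counted by strand is not given in the sources used here, so reads of these genes cannot be told apart.

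The called transporters moved in both directions between genotypes, and the astrocyte markers also differed. All 10 were higher in TNFR2-/- in both conditions by sign, and 7 in NS (compared with 19.9% of all genes) and 9 in St OPCs (compared with 15.4%) lay wholly above WT. *Gja1* (0.92) and *Fgfr3* (0.90) were called in NS, and *Slc1a2* (1.01) and *Slc1a3* (0.69), the glutamate carriers of astrocytes, in St OPCs. Of 8 OPC markers in St OPCs, 4 were higher and 4 lower in TNFR2-/- by sign, with *Pdgfra* (−0.60) and *Lhfpl3* (−0.59) called lower. The part of cell composition in the levels of *Slc38a3*, *Slc6a11* and *Slc6a9* was not tested. Summed mural and fibroblast markers spread from 75.7 to 872 RPM and overlapped between genotypes.

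In the remaining roles, *Slc7a11* was the 1 transporter called between genotypes. The glutamate carrier *Slc1a1* was at 70.1 to 117 FPKM in the 12 libraries and overlapped between genotypes, and *Slc1a4* differed by −0.12 ± 0.07 SE in NS and −0.20 ± 0.07 SE in St OPCs (adjusted p = 0.292 and 0.111). *Slc1a6*, a glutamate carrier with 65 to 116 reads, was lower in TNFR2-/- St OPCs by −0.52 ± 0.11 SE (adjusted p = 0.0338). The cationic amino acid carriers *Slc7a1* and *Slc7a2*, which supply arginine, were at −0.33 ± 0.11 SE (adjusted p = 0.0675) and 0.24 ± 0.20 SE (adjusted p = 0.459) in NS OPCs. In St OPCs *Slc7a1* differed by −0.19 ± 0.11 SE (adjusted p = 0.267). *Slc7a2* differed by 0.56 ± 0.20 SE (adjusted p = 0.114), with all TNFR2-/- above all WT libraries, and *Slc1a5* by −0.56 ± 0.22 SE (adjusted p = 0.136), with all below. With stimulation *Slc7a2* differed by −0.09 ± 0.20 SE in WT and 0.23 ± 0.20 SE in TNFR2-/- OPCs, and *Slc7a1* by −0.07 ± 0.11 SE and 0.07 ± 0.11 SE, all with an adjusted p above 0.4. The 95% confidence intervals of these 4 changes lay between −0.54 and 0.68.

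*Slc7a6* and *Slc36a4*, a member of the *Slc36* family, were lower in TNFR2-/- OPCs by small amounts that passed the adjusted p in both conditions. The differences were −0.26 and −0.22 for the first and −0.25 and −0.30 for the second. By adjusted p alone, 11 transporters differed between genotypes in NS (4 up and 7 down, compared with 10.9% of all genes) and 10 in St OPCs (5 up and 5 down, compared with 5.45%). They include 2 with a mean under 1 FPKM, named after their values were seen. *Slc3a1*, the heavy chain of the cystine and dibasic amino acid carrier of kidney, had 16 to 27 reads in WT and 3 to 7 in TNFR2-/- libraries. It differed by −0.805 in NS and −0.758 in St OPCs (adjusted p = 0.0156 and 0.0218), and its mean under 1 FPKM kept it from a call. *Slc7a14*, an orphan of the cationic carriers, had 130 to 143 reads in WT, 74 to 81 in TNFR2-/- NS and 91 to 106 in TNFR2-/- St libraries. It differed by −0.45 in NS (adjusted p = 0.0156) and −0.22 in St OPCs (adjusted p = 0.113). These differences depend on the 0.5 FPKM added.

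Other genes of amino acid handling were examined in lists. Of 18 listed genes of arginine, cystine and branched-chain use, 3 were called up and 1 down in both genotypes (22.2%, compared with 7.53% of all genes in WT and 10.1% in TNFR2-/- OPCs). *Nos2*, which makes nitric oxide from arginine, was at no more than 0.0820 FPKM in NS and at 4.87 to 18.9 FPKM in St libraries. It rose by 3.61 (WT, adjusted p = 5.1e-05) and 4.36 (TNFR2-/-, adjusted p = 9.21e-06), values that depend on the 0.5 FPKM added. *Sat1*, of polyamine breakdown, rose by 0.997 and 1.04, and *Odc1*, of polyamine synthesis, by 0.63 and 0.60. *Chac1*, which degrades glutathione, fell by 0.70 and 1.11.

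Of 24 listed genes of amino acid sensing and the deprivation response, 23 were tested, and *Nupr1* was called up in both genotypes (1.47 and 1.48) and *Sesn1*, a leucine-sensing regulator of mTORC1, down in TNFR2-/- OPCs (−0.845). These were 4.35% of the list in WT and 8.70% in TNFR2-/- OPCs, below the shares of all genes. In WT OPCs *Sesn1* fell by 0.57 (adjusted p = 0.000659), under the fold change required. Between genotypes *Nprl3* (0.63) and *Lamtor3* (−0.60) were called in NS (8.70%, compared with 2.90% of all genes) and *Lamtor3* (−0.78) in St OPCs (4.35%, compared with 1.80%). Of 13 mitochondrial, lysosomal and aromatic amino acid carriers, *Slc25a29*, a mitochondrial carrier of basic amino acids, fell by 1.70 and 1.38 in WT and TNFR2-/- OPCs, and *Slc25a13*, the aspartate and glutamate carrier, fell by 0.66 in TNFR2-/- OPCs, with a WT difference of −0.28 (adjusted p = 0.343). These were 7.69% of the list in WT and 15.4% in TNFR2-/- OPCs (compared with 7.53% and 10.1% of all genes). *Slc16a10*, a carrier of aromatic amino acids, was lower in TNFR2-/- NS than in WT NS OPCs (−0.64; 7.69% of the list, compared with 2.90%). None of 20 enzymes of glutamate, GABA, glycine and creatine was called with stimulation by limma. By adjusted p alone, 0 of 20 passed in WT and 3 of 20 in TNFR2-/- OPCs, compared with 16.1% and 26.0% of all genes. Between genotypes *Abat*, which degrades GABA, was called higher in TNFR2-/- St OPCs (0.63 ± 0.13 SE, adjusted p = 0.0295), 1 of the 20 (5%, compared with 1.80% of all genes). Of 7 vesicular transmitter transporters, 5 were tested and none was called in any comparison. By adjusted p alone, 1 of the 5 was lower in TNFR2-/- St than in WT St OPCs, compared with 5.45% of all genes that passed.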

How the data were processed

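RNA of 12 OPC libraries was analyzed. By the study's methods, trimming was done with Trim Galore, read pairs per gene on GRCm38 were counted with STAR and edgeR served the authors' own calls. The authors deposited FPKM in an NS and an St table of 45792 entries each. The methods name a BGISeq-500 platform and pup ages that differ slightly from the labels, which name Illumina protocols. Symbols used more than once (229 entries) were left out. Reads were recovered from the steps of the deposited FPKM, with 100% of values of 26636 genes whole within 0.01 reads. The divisor of the FPKM had a Spearman correlation of 0.01 with exon length across 16014 genes of GENCODE M21, which are not independent replicates.

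All genes that averaged 0.1 FPKM or more were fitted with limma 3.58.1 in R 4.3.3 on log2(FPKM + 0.5), as 4 group means with a mean-dependent prior and Benjamini-Hochberg adjustment. The procedure was also run on simulated independent counts with known changes. These held no shared culture effect and no shift over all genes, so the run cannot show how either affects the calls. After group means were removed, NS and St libraries of the same number correlated at 0.34 to 0.65 (6 pairs) within a genotype, and others at −0.45 to 0.09 (12 pairs), so numbers mark a culture. Across genotypes the same numbers correlated at −0.06 to 0.2 (4 pairs) and pair nothing. Alternatives were other pseudocounts, filters, level thresholds and scalings, quantile normalization, no trend, voom on recovered reads, replicate blocks, fits to 6 libraries, each library left out and, chosen after seeing the data, TNFR2-/- culture 5 left out. All transporters matching the symbol rule were accounted for. Those called are given by library, and up to 4 others per role were named by read number. *Slc43a3*, *Slc1a5* and others that passed the adjusted p alone were chosen after their values were seen. The transporters, roles and lists were chosen with earlier results of these data known. P values rest on the spread between libraries within groups, pooled over the 4 groups and moderated over genes. Without the culture as a block they do not use the pairing of NS and St libraries. Tables and figures used Python 3.11.15 with numpy 2.4.6, pandas 2.3.3 and matplotlib 3.10.9. The values of 1 transporter are not reported here, although it is included in the counts.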

Additional observations from a re-analysis of the deposited data

Results flagged for a closer look

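*Slc1a5* was singled out because it moved in opposite directions in the genotypes, up in the 3 WT cultures and down in the 3 TNFR2-/- cultures. The smallest of these changes was 0.03, in WT culture 4. Over the alternatives the fitted change with stimulation in TNFR2-/- OPCs ran from −0.427 to 0.015. The share of all genes with such a pattern was not computed. The interaction was −0.41 on the log2 scale, which did not pass the adjusted p of 0.05 (adjusted p = 0.8), so the difference between genotypes was not established by the test.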

How the results depend on the processing

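None of the 38 gene values that passed the adjusted p reversed its direction under its alternatives. Of 350 alternative fits of the 14 called values, 93 ended the call. The cause was not tested, beyond fewer libraries where some were left out. The number of called transporters in TNFR2-/- NS vs WT NS (6) was 11 by adjusted p alone, 3 with the replicate block across genotypes, 0 in the fit to 6 libraries, 3 without culture 5 and 1 to 7 with 1 library left out. The lowest, 1, came on leaving out replicate 3 or 4 of WT NS or replicate 5 of TNFR2-/- NS, and leaving out replicate 2 of TNFR2-/- NS gave 3. In WT St vs WT NS (1) it was 0 without a filter on low values, 6 by adjusted p alone, 2 among genes of at least 1 FPKM, with median-of-ratios scaling, with voom and with the replicate block within genotype, and 0 to 1 with 1 library left out (0 without WT NS replicate 2, 3 or 4 or WT St replicate 2 or 4). In TNFR2-/- St vs TNFR2-/- NS (2) it was 11 by adjusted p alone, 1 with median-of-ratios scaling, in the fit to 6 libraries and without culture 5, and 1 to 4 with 1 library left out (1 without TNFR2-/- NS replicate 2 or 5 or TNFR2-/- St replicate 2 or 4, and 4 without TNFR2-/- St replicate 5). In TNFR2-/- St vs WT St (5) it was 3 without a filter, 10 by adjusted p alone, 2 in the fit to 6 libraries, 3 without culture 5 and 0 to 7 with 1 library left out (leaving out WT St replicate 4 gave 0, TNFR2-/- St replicate 5 gave 1, WT St replicate 3 or TNFR2-/- St replicate 2 gave 2 and WT St replicate 2 gave 3). The interaction stayed at 0 under the 24 alternatives run. The pairing by culture within genotype changed no call, fold change included, other than that of *Slc43a3*. Genes with few reads, such as *Slc38a4* with 5 to 49, are limited by depth.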
